A study of Homo sapiens with 6 samples.

Results

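The ID proteins and the feedback genes of bone morphogenetic protein (BMP) signalling were examined after lentiviral expression of RUNX1 in the human embryonic kidney line HEK-293T. The group held 9 genes chosen by name, ID1, ID2, ID3, ID4, SMAD6, SMAD7, BAMBI, BMP4 and BMP7, out of 20046 genes that the platform annotation names on the array. Their 12 probes were found by gene symbol. RUNX1-overexpressing cells were set against cells that received the MCS control vector, with 3 arrays each, biological triplicates by the study's account. Both groups were transduced with lentivirus, selected with puromycin and harvested a week after transduction, so the comparison is one of inserts. The parent line does not express RUNX1 according to the study, and the expression was driven by an artificial overexpression system.

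BMPs are secreted ligands that bring together type I and type II serine/threonine kinase receptors. The receptors phosphorylate SMAD1, SMAD5 and SMAD9, which enter the nucleus with SMAD4. The ID genes are among the best known targets of this signal in many cell types. They encode helix-loop-helix proteins without a DNA-binding region, which hold E proteins such as TCF3 and TCF12 away from DNA. SMAD6 and SMAD7 are inhibitory SMADs, and BAMBI is a pseudoreceptor without a kinase, and all of them are induced by the pathway that they restrain. BMP4 and BMP7 are ligands, and BMP7 is known for its part in kidney development.

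The promoters of ID1, ID2, ID3 and BAMBI are shown. Among the members with a matched promoter, these varied most visibly together or against each other over the arrays. The sequences are those of RefSeq (GRCh38.p14), each 300 bases that end 50 bases after an annotated start site. Capitals mark the letters GGCGCC, a GC-rich element bound by SMADs of the BMP branch, and GTCTG or its reverse complement CAGAC, which contain the core SMAD-binding letters.
ID1 promoter (chr20:31605039-31605338, plus strand): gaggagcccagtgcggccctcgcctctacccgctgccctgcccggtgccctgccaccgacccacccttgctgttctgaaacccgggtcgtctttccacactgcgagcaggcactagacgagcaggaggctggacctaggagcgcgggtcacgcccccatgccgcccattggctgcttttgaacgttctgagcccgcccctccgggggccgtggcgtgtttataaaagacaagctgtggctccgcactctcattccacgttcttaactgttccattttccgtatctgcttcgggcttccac
ID2 promoter (chr2:8681806-8682105, plus strand): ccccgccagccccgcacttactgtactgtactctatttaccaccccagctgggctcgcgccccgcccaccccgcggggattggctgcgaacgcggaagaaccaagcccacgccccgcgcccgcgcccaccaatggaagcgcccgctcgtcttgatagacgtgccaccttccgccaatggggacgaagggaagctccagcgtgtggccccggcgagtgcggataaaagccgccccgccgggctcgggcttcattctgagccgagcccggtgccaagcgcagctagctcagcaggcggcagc
ID3 promoter (chr1:23559452-23559751, minus strand): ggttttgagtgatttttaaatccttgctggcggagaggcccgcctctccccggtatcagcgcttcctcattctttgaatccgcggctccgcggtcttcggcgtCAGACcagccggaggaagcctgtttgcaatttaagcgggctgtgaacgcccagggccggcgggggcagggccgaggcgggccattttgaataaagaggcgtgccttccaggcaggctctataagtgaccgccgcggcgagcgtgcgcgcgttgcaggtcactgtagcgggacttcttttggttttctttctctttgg
BAMBI promoter (chr10:28677271-28677570, plus strand): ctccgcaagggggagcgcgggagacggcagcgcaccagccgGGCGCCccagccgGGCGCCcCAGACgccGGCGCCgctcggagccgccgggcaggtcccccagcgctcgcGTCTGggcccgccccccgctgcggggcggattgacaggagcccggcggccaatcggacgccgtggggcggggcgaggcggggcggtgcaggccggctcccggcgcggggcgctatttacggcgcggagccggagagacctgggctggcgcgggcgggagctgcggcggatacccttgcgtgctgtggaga
Promoters of 8 of the 9 members were matched, all but that of BMP7. SMAD7 and BMP4 have 3 start sites each in the table, of which the outermost was used, and for BMP4 that site lies inside the annotated gene. GGCGCC, read on both strands, was found 3 times in the BAMBI promoter, 2 times in that of BMP4 and 0 times in the other 6, and 19.2% of the 35116 promoters in the table hold it. GTCTG was found 2 times each for BAMBI and SMAD7 and 1 time each for ID3, ID4 and BMP4, and 45.3% of all promoters hold it. One of the BAMBI matches lies between GGCGCC matches, and none overlaps another. The RUNX letters TGTGGT were in 0 of the 8 promoters, beside 13.1% of all promoters. The E-box letters CANNTG, which E proteins recognise, occurred 1 time each in the promoters of ID2, ID4, SMAD6 and SMAD7, beside 68.7% of all promoters with at least 1 match. These counts describe letters in a short window and were not tested against the expression values, by which the promoters shown were chosen. In the same assembly the genes outside those windows lie at chr6:19837370-19842197 (ID4), chr15:66702236-66782849 (SMAD6), chr18:48919853-48950965 (SMAD7), chr14:53949736-53956891 (BMP4) and chr20:57168753-57266641 (BMP7).

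The arrays were Illumina HT-12 v4 BeadChips, on which bead-bound DNA probes capture labelled RNA copies and report an intensity and a detection p-value. At a detection p under 0.05, each RUNX1 array had 18096 to 19321 of its 47231 probes detected and each MCS array 18405 to 19080. None of the 3 RUNX1 probes was detected on a RUNX1 array, and 1 of their 18 signals over all arrays was detected, on an MCS array, so the arrays do not check the overexpression or the labels. The 6 arrays fell into separate sets that cross the transduction labels: the first principal component, with 66.7% of the variance, gave negative scores to RUNX1 replicates 1 and 2 and to MCS replicate 1, and positive scores to the other 3 arrays. RUNX1 replicate 3 and MCS replicate 1 thus each stood with most arrays of the other group, and whether these 2 arrays were exchanged cannot be told from the values. Each difference given here follows the labels as deposited and would change if they were. Of 7 genes listed as traits of HEK293T cells, 6 were measured above background, VIM and NEFM among them, and the kidney factor PAX2 was not detected. The summed intensity of this list, before normalization, was 8263 to 9167 on RUNX1 arrays and 9388 to 12025 on MCS arrays, without overlap. Without normalization between arrays, the median log2 difference of all genes tested was also negative, at -0.17. VIM alone had an intensity of 4216 to 7475. After normalization, 0 of the 6 measured genes had groups without overlap, beside 6.56% of all genes tested. The part of this list in the results was not tested. Of 5 blood markers CD14 was detected on 6 arrays and CD34 on 3, whereas PTPRC, SPI1 and HBG1 were not detected. The summed intensity of the list was 590 to 643 on RUNX1 arrays and 609 to 646 on MCS arrays.

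Of the 9 members, 7 were measured above background, by at least 1 probe detected on at least 3 arrays, and 8 of the 12 probes passed this filter. ID4, the member of the family with a role in neural and germline precursors, had an intensity of 87.6 to 90.9 on RUNX1 arrays and 78.2 to 96.6 on MCS arrays. BMP4 had 80.9 to 88.9 on RUNX1 arrays and 60.7 to 97.5 on MCS arrays. Neither was detected on any of the 6 arrays, where the lowest intensity that counted as detected was 124 to 129. The second ID1 probe was detected on RUNX1 replicate 3 and MCS replicate 1 only, and the second SMAD7 probe on no array. These probes give no measure of a difference.

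**Figure D1:**
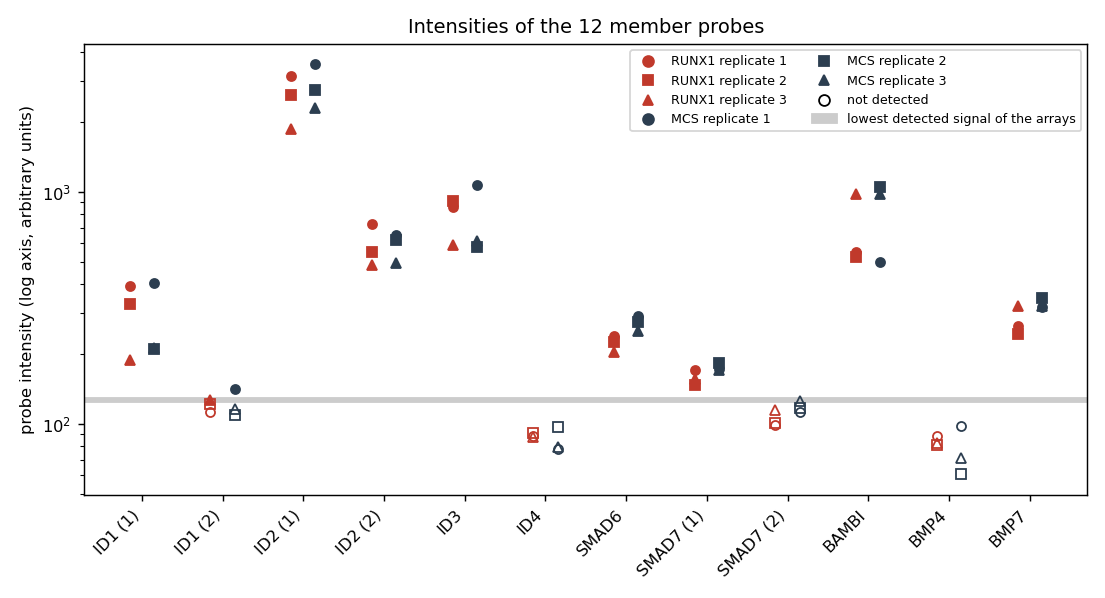
Intensity (log axis, arbitrary units) of each of the 12 probes of the 9 genes on the 3 RUNX1 arrays (red, left) and the 3 MCS arrays (dark, right), with open symbols for signals that were not detected and a grey band at the lowest detected signal of the arrays. ID4 and BMP4 lie below the band on each array, whereas the ID2 probe kept for the test lies between 1863 and 3543.

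ID1, ID2 and ID3 were measured on each array, and none of them differed with RUNX1 beyond the spread of the arrays. The limma fit covered 11129 genes, of which 0 had an adjusted p under 0.05 (0% of the genes) and 253 had an unadjusted p under 0.05 (2.27% of the genes). Of the 7 members, 0 passed either threshold. On a log2 scale, after background correction and quantile normalization, ID1 had expression values of 8.20, 8.04 and 6.97 on RUNX1 replicates 1 to 3, against 8.19, 6.79 and 7.02 on MCS replicates 1 to 3. RUNX1 replicates 1 and 2 and MCS replicate 1 were high, the other 3 arrays were low, and the groups overlapped. The log2 difference, RUNX1 minus MCS, was 0.40 (95% confidence interval -0.64 to 1.45; adjusted p = 1.00 from limma).
ID2, which also binds E proteins, had 11.55, 11.46 and 10.95 on RUNX1 replicates 1 to 3, against 11.67, 11.21 and 11.16 on MCS replicates 1 to 3. The same 3 arrays were the highest and the groups overlapped. Its log2 difference was -0.024 (95% confidence interval -0.53 to 0.48), and it was positive without RUNX1 replicate 3 (0.16) or MCS replicate 1 (0.14). The second ID2 probe had 9.27, 9.01 and 8.90 on RUNX1 replicates 1 to 3, against 9.02, 8.85 and 8.72 on MCS replicates 1 to 3. It had the same 3 arrays on top, but its difference was 0.20 (95% confidence interval -0.17 to 0.56), so the probes of ID2 gave opposite signs and neither passed the threshold.
ID3 had 9.53, 9.82 and 9.23 on RUNX1 replicates 1 to 3, against 9.83, 8.74 and 9.09 on MCS replicates 1 to 3. Again MCS replicate 1 and RUNX1 replicates 1 and 2 were the highest, and the groups overlapped. The log2 difference was 0.31 (95% confidence interval -0.38 to 1.00). On the fold scale these intervals reached 0.640 and 2.74 for ID1, 0.692 and 1.40 for ID2, and 0.767 and 2.00 for ID3.
The ID1 and ID3 differences depended on single arrays. That of ID1 was 0.13 without MCS replicate 2, 0.17 without RUNX1 replicate 1, 0.25 without RUNX1 replicate 2 or MCS replicate 3, 0.79 without RUNX1 replicate 3 and 0.83 without MCS replicate 1. That of ID3 was 0.069 without MCS replicate 2, 0.16 without RUNX1 replicate 2, 0.46 without RUNX1 replicate 3 and 0.61 without MCS replicate 1. Without MCS replicate 1 the unadjusted p of ID3 was 0.0274 and its adjusted p 0.639 from limma. When arrays were weighted in limma, RUNX1 replicate 3 and MCS replicate 1 received the lowest weights (0.279 and 0.314, beside 0.778 to 4.20), and ID1 (log2 difference 1.12, adjusted p = 0.0443 from limma) and ID3 (0.83, adjusted p = 0.0447) passed the threshold. In that weighted fit 907 of 11129 genes passed, beside 2 of the 7 members. The weights were estimated from these same values, and an array that stands apart from its labelled group counts less. That ID1 and ID3 passed is therefore no separate support for a difference. RUNX1 replicate 3 and MCS replicate 1 both have the opposite sign on the first component to the other arrays of their group.

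**Figure D2:**
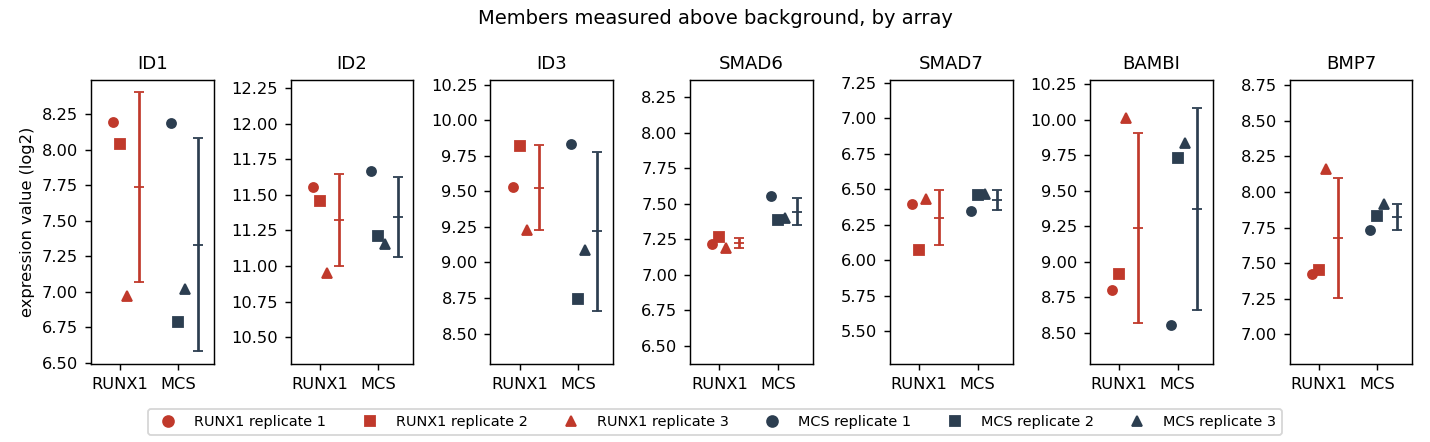
Expression value (log2) of the 7 members measured above background on the 3 RUNX1 arrays (red) and the 3 MCS arrays (dark), with 1 symbol for each array and bars for the mean and SD of the group; each panel spans the same log2 range. In ID1, RUNX1 replicate 3 sits at 6.97 beside MCS replicates 2 and 3, and MCS replicate 1 sits at 8.19 beside RUNX1 replicates 1 and 2, whereas in SMAD6 the 3 RUNX1 arrays lie below the 3 MCS arrays.

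Of the feedback inhibitors, SMAD6, which acts mainly on the BMP branch, was the only one of the 7 measured members whose groups did not overlap. It had 7.22, 7.27 and 7.19 on RUNX1 replicates 1 to 3, against 7.55, 7.38 and 7.40 on MCS replicates 1 to 3. Each RUNX1 array lay below each MCS array. The log2 difference was -0.22 (95% confidence interval -0.50 to 0.061), a fold change of 0.858 that did not pass the threshold (adjusted p = 1.00 from limma, unadjusted 0.107). The unadjusted p was 0.0203 by the methods' t-test and 0.0338 from limma without normalization between arrays, and the adjusted p was 1.00 and 0.817 in these settings. The 2-sided exact permutation p was 0.1, the smallest that 3 arrays against 3 allow. Groups that did not overlap, in either direction, were seen for 1 of the 7 members, beside 6.56% of all genes tested. Over all genes the RUNX1 arrays lay lower in 2.75% and higher in 3.81%. The sign of the SMAD6 difference was negative under each of 20 alternative settings, in which it ran from -0.45 without normalization between arrays to -0.13 in the authors' processed values. Many of these could not reverse it. A change of test without weights, of filter or of probe rule left the difference at -0.22. Dropping or weighting arrays cannot change the sign where the groups do not overlap. Its within-group spread was small, with an SD of 0.037 in RUNX1-overexpressing cells and 0.095 in MCS-transduced cells (n = 3 each).
SMAD7, which restrains both the BMP and the TGF-beta branch, had 6.40, 6.08 and 6.43 on RUNX1 replicates 1 to 3, against 6.35, 6.46 and 6.47 on MCS replicates 1 to 3. RUNX1 replicate 2 was the lowest array and the rest lay within a narrow band, with the groups overlapping. The log2 difference was -0.12 (95% confidence interval -0.46 to 0.21), and it was -0.0097 without RUNX1 replicate 2.
BAMBI had 8.80, 8.91 and 10.01 on RUNX1 replicates 1 to 3, against 8.55, 9.73 and 9.83 on MCS replicates 1 to 3. The arrays that were high for the ID genes were low for BAMBI, and the groups overlapped. The log2 difference was -0.13 (95% confidence interval -1.15 to 0.89), as fold changes 0.450 to 1.85, and its sign was positive when RUNX1 replicate 1 (0.088), RUNX1 replicate 2 (0.032), MCS replicate 2 (0.047) or MCS replicate 3 (0.099) was left out. It was -0.52 without RUNX1 replicate 3 and -0.54 without MCS replicate 1.

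BMP7 was the only BMP ligand among the members above background. It had 7.42, 7.45 and 8.16 on RUNX1 replicates 1 to 3, against 7.73, 7.83 and 7.91 on MCS replicates 1 to 3. RUNX1 replicates 1 and 2 were the lowest arrays and RUNX1 replicate 3 the highest, so the MCS values lay inside the range of the RUNX1 values. The SD was 0.42 in RUNX1-overexpressing cells and 0.090 in MCS-transduced cells (n = 3 each). The log2 difference was -0.15 (95% confidence interval -0.66 to 0.36), and it was -0.39 without RUNX1 replicate 3, -0.022 without RUNX1 replicate 1 and -0.036 without RUNX1 replicate 2. Without RUNX1 replicate 3 its unadjusted p was 0.0248 and its adjusted p 0.695 from limma.
For the 7 members, 2 differences were positive and 5 negative, with a median of -0.12, beside a median of 0.021 over all genes tested. To gauge what these 3 arrays per group could detect, known differences were added to 200 genes of these arrays in limma fits. The spread from the split that crosses the labels is part of that gauge, and the rates are pooled over genes. Added changes of 1.41-fold passed the threshold in 0% of cases, those of 2-fold in 44.1%, and those of 4-fold in 95.3%. Because 200 genes were changed at once, these are not the rates for a single member. ID1 and BAMBI varied more than most genes, with standard errors of 0.45 and 0.43, so the rates do not apply to them.

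The spread over the 6 arrays differed among the members. The highest array exceeded the lowest 2.66-fold for ID1, 2.13-fold for ID3 and 1.65-fold for ID2. For BAMBI this ratio was 2.74-fold and for BMP7 1.67-fold, whereas it was 1.29-fold for SMAD6 and 1.31-fold for SMAD7. The SD over the 6 arrays was at the 98.3 percentile of all genes tested for ID1, 97.6 for BAMBI and 90.3 for ID3. It was at the 68.7 percentile for BMP7, 66.3 for ID2, 25.6 for SMAD7 and 21.7 for SMAD6. The ID genes were high on the arrays with negative scores on the first principal component, and BAMBI was high on those with positive scores. BMP7 and, by a small margin, SMAD7 ranked the arrays on the same sides as BAMBI, and SMAD6 did not divide them that way. That component holds 66.7% of the variance over all genes tested, so this division is not particular to the members. The share of all genes that divide the arrays this way was not counted. The share of probes detected also differed between these arrays, at 40.9%, 39.8% and 40.4% for RUNX1 replicates 1 and 2 and MCS replicate 1, beside 38.3%, 39.6% and 39.0% for the remaining RUNX1 replicate 3 and both remaining MCS arrays, and its part in the pattern was not tested.

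**Figure D3:**
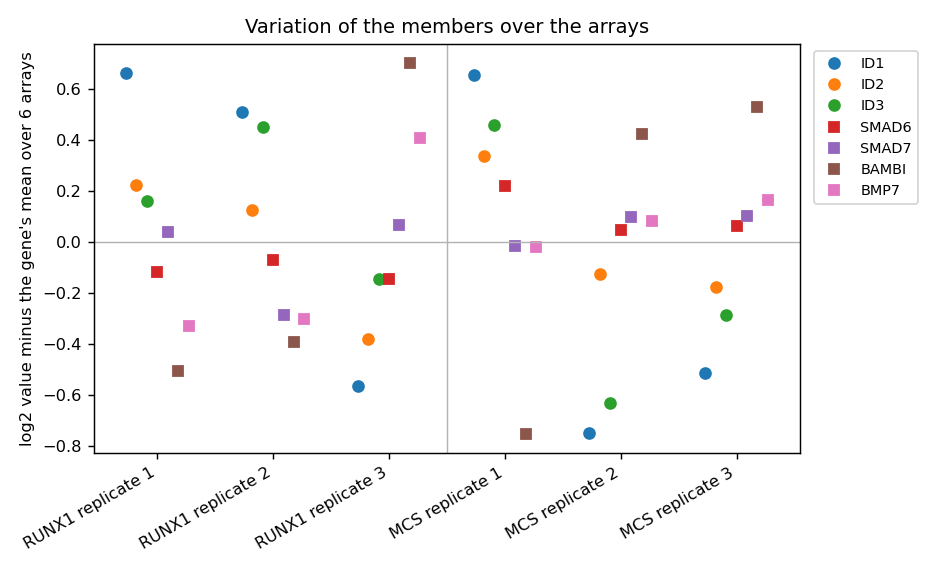
Difference of each member from its own mean over the 6 arrays (log2), with circles for the ID genes and squares for the feedback inhibitors and BMP7, for RUNX1 replicates 1 to 3 and then MCS replicates 1 to 3. The ID genes lie above 0 and BAMBI below 0 on RUNX1 replicates 1 and 2 and MCS replicate 1, and the reverse holds on the other 3 arrays.

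Of the 4 listed fibroblast markers, LUM followed the order of the arrays seen for the ID genes. LUM, the matrix proteoglycan lumican, had 8.36, 7.94 and 5.45 on RUNX1 replicates 1 to 3, against 8.15, 5.41 and 5.45 on MCS replicates 1 to 3, and it was detected on the 3 arrays on which the ID genes were high. LUM passed the filter through those 3 arrays alone. COL1A1 had 5.80, 5.67 and 5.03 on RUNX1 replicates 1 to 3, against 5.63, 5.58 and 5.20 on MCS replicates 1 to 3. It was near background, with an intensity of 108 to 139 and detection on 4 of 6 arrays, and MCS replicates 1 and 2 lay close together. The other markers of the list, COL3A1 and DCN, did not pass the filter on detection. The summed intensity of the 4 fibroblast markers was 476 to 798 on RUNX1 arrays and 481 to 784 on MCS arrays, and their part in the pattern was not tested. In bulk RNA, fewer cells of a type and less RNA per cell cannot be told apart.

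The genes whose values ran most like those of a member over the 6 arrays were named by the highest Pearson correlation. The arrays fall into separate sets, so any gene that divides those sets scores high with a member that does so too. The coefficients carry no test. For ID1 they were MPP2, a scaffold protein of the membrane (r = 0.999 over 6 arrays), and ATG4A, an autophagy protease (r = 0.997). ATG4A had 9.12, 9.01 and 8.54 on RUNX1 replicates 1 to 3, against 9.07, 8.41 and 8.51 on MCS replicates 1 to 3. For ID2 they were NME6 and the mitochondrial leucyl-tRNA synthetase LARS2 (r = 0.998 and 0.997), and for ID3 the membrane glycoprotein PDPN and FBXO34 (r = 0.994 and 0.993). For BAMBI they were the phospholipase PLCB4 and ARL16 (r = 0.999 and 0.997), and ARL16 had 12.43, 12.45 and 13.53 on RUNX1 replicates 1 to 3, against 12.09, 13.31 and 13.33 on MCS replicates 1 to 3. BMP7 ran most like TMEM87A and the interferon-induced gene ISG15 (r = 0.998 and 0.996), SMAD7 most like IBSP and the deacetylase HDAC6 (r = 0.996 and 0.989), and SMAD6 most like the kinase AAK1 and WASHC2C (r = 0.988 and 0.977). AAK1 had 5.99, 6.04 and 6.02 on RUNX1 replicates 1 to 3, against 6.55, 6.24 and 6.28 on MCS replicates 1 to 3. It was named for its likeness to SMAD6, so its lack of overlap between the groups is a result of that choice.

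The rest of the pathway was covered by 78 listed genes, of which 73 had a named probe and 52 were tested. In limma 0 of them were higher and 0 lower with RUNX1 after adjustment, and 3 of 52 had an unadjusted p under 0.05, beside 2.27% of all genes. For FSTL3, SMAD1 and JUNB, 3 of 52, all RUNX1 arrays lay on one side of all MCS arrays (6.56% of all genes), and the median log2 difference of the 52 was 0.017, beside 0.021 over all genes.
Of 16 ligands 5 were tested, with log2 differences of -0.33 to 0.51. GDF15, a stress-induced ligand, had 6.38, 6.39 and 6.26 on RUNX1 replicates 1 to 3, against 6.28, 5.87 and 5.78 on MCS replicates 1 to 3 (log2 difference 0.37, standard error 0.16). BMP6 had 9.28, 9.03 and 7.90 on RUNX1 replicates 1 to 3, against 8.94, 8.01 and 7.72 on MCS replicates 1 to 3 (log2 difference 0.51, standard error 0.43). For BMP6 the 3 highest arrays were those that were high for the ID genes. The other ligands that were listed but not tested, 11 genes with BMP2, TGFB1 and TGFB2 among them, were detected on no array.
Of 14 receptors and co-receptors 10 were tested, with differences of -0.70 to 0.34. RGMB, a BMP co-receptor, had 5.46, 4.94 and 5.43 on RUNX1 replicates 1 to 3, against 5.42, 6.21 and 6.02 on MCS replicates 1 to 3 (log2 difference -0.61, unadjusted p = 0.0413 and adjusted p = 1.00 from limma), and was detected on 3 of 6 arrays. TGFBR2, the type II receptor of TGF-beta, had a difference of 0.34 (standard error 0.16).
All 6 SMAD transducers were tested, with differences of -0.55 to 0.21. SMAD1, which carries the BMP signal, had 5.04, 5.54 and 5.15 on RUNX1 replicates 1 to 3, against 5.95, 5.60 and 5.84 on MCS replicates 1 to 3. Each RUNX1 array lay below each MCS array, but the probe was near background, detected on 1 of 3 RUNX1 arrays and 3 of 3 MCS arrays. Its log2 difference was -0.55 (unadjusted p = 0.0165 and adjusted p = 1.00 from limma). SMAD4, the partner shared by all receptor SMADs, was detected on all 6 arrays and had a difference of 0.21 (standard error 0.18).
Of 12 secreted antagonists 8 were tested, with differences of -0.29 to 0.70 and a median of 0.22. FSTL3, which binds activins and related ligands, had 6.45, 6.38 and 6.42 on RUNX1 replicates 1 to 3, against 6.13, 5.79 and 5.85 on MCS replicates 1 to 3. Each RUNX1 array lay above each MCS array, and the probe was detected on all 6 arrays. The log2 difference was 0.49 (standard error 0.14, unadjusted p = 0.00821 and adjusted p = 1.00 from limma). TWSG1, a BMP-binding modulator, had a difference of 0.31 (standard error 0.21). FST and SOSTDC1 were chosen after their values were seen, because they follow the order of the arrays seen for the ID genes, so that likeness is a result of the choice. FST, the activin and BMP antagonist follistatin, had 7.46, 7.41 and 5.00 on RUNX1 replicates 1 to 3, against 7.47, 5.24 and 5.07 on MCS replicates 1 to 3, and it was detected only on the 3 arrays on which it was high. SOSTDC1, a secreted BMP antagonist of the kidney, had 6.69, 6.88 and 5.42 on RUNX1 replicates 1 to 3, against 6.78, 5.74 and 5.31 on MCS replicates 1 to 3.
Of 12 intracellular regulators 10 were tested, with differences of -0.32 to 0.19. PMEPA1, a TGF-beta-induced inhibitor, had -0.32 (standard error 0.17), and LEMD3, which binds SMADs at the inner nuclear membrane, had 0.19 (standard error 0.15). Of 10 other targets 7 were tested, with differences of -0.50 to 0.18. JUNB, an immediate early gene, had 5.33, 5.42 and 5.23 on RUNX1 replicates 1 to 3, against 6.10, 5.60 and 5.52 on MCS replicates 1 to 3. It was detected on 0 of 3 RUNX1 arrays and 3 of 3 MCS arrays, so it passed the filter through the MCS arrays alone, and its lack of overlap is no support for a difference. Its log2 difference had a 95% confidence interval of -0.84 to 0.0088 (adjusted p = 1.00 from limma). MSX2, a homeobox target of BMPs, was likewise detected on the MCS arrays alone, and its groups overlapped (95% confidence interval of the log2 difference -0.49 to 0.12).
Among the partners of the ID proteins, TCF3, an E protein that ID proteins bind, had 8.15, 8.19 and 8.02 on RUNX1 replicates 1 to 3, against 8.16, 7.99 and 7.95 on MCS replicates 1 to 3 (log2 difference 0.088, 95% confidence interval -0.21 to 0.39). TCF12 had a difference of 0.11 (95% confidence interval -0.33 to 0.55). Of 8 listed partners 6 were tested, with differences of -0.11 to 0.12, and 0 passed an adjusted or an unadjusted p under 0.05 from limma. The interval was widest for TCF4, an E protein named after its values were seen, at -0.92 to 0.70.

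**Figure D4:**
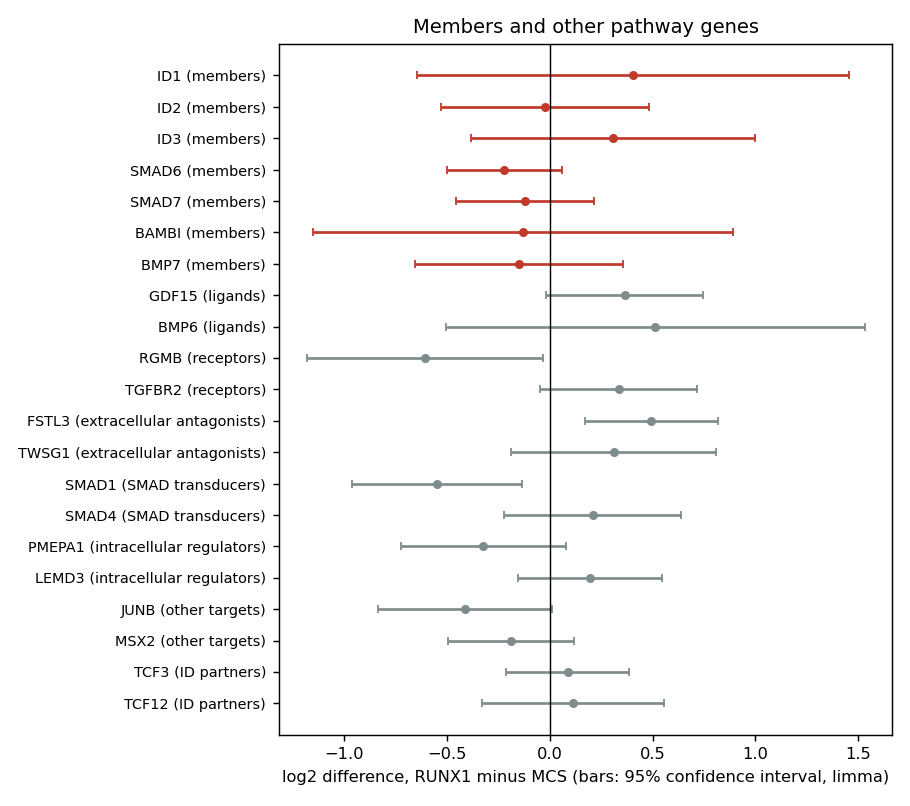
Log2 difference, RUNX1 minus MCS, with its 95% confidence interval from limma for the 7 members (red) and for the 2 genes with the smallest p-values in each of 7 pathway lists (grey). The intervals of the 7 members include 0, whereas those of RGMB, FSTL3 and SMAD1 do not before adjustment for the 11129 genes tested.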

How the data were processed

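The authors hybridized RNA from HEK-293T cells, RUNX1-transduced or MCS-transduced, to Illumina HT-12 v4 BeadChips. The labels place 3 arrays in each group. The authors deposited a probe intensity with no background subtracted or normalization, and beside it a detection p-value in steps of 1 in 770. They also deposited processed values, treated here as log2, made with lumi (no version stated).
From the intensities, neqc of limma 3.58.1 (R 4.3.3) estimated the background from the detection p-values, added an offset of 16, quantile-normalized and took log2. The platform annotation gave 1 symbol for 30113 of 47231 probes, several for 8 and none for 17110. A probe passed if its detection p was under 0.05 on 3 or more arrays, and the brightest passing probe stood for its gene (11129 genes). Transduction was the only term in the lmFit and eBayes model, with Benjamini-Hochberg adjustment over all genes, and probes of 1 gene were compared in a fit over all 14578 named probes that passed. The number of arrays limits the precision, and the p-values set each group difference against the spread between these arrays within the groups. The fit was tested on simulated data. No chip or batch was named.
The members, the gene lists and the tests were chosen with earlier results of these data known. Named were the 9 members, the 2 smallest p-values of each list (or those past the threshold), the 2 genes most like each member, and RUNX1. Genes of the cell type marker lists were named too, VIM and NEFM as examples, and so were some undetected ligands. Any others are marked as picked after seeing values. The 20 alternatives changed the background correction, offset, normalization, filter, source of values, rule for several probes, the test (the methods' t-test, a trend, weights for arrays, a block for replicate numbers) or dropped 1 array. CTGF of the lists was matched under its present symbol, CCN2.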

Additional observations from a re-analysis of the deposited data

How the results depend on the processing

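The count of 0 genes past an adjusted p under 0.05 from limma held under 19 of 20 alternatives, with 135 to 846 genes at an unadjusted p under 0.05, and that of 0 members under the same 19. Array weights called 907 of 11129 genes and 2 of 7 members, ID1 (1.12) and ID3 (0.83), and the cause was not tested. In that fit 3798 genes and 4 of the 7 members had an unadjusted p under 0.05 from limma. The weights came from these same values and lowered arrays that stood apart from their labelled group. Of 140 alternative values of the member differences, 130 kept their sign and their side of the threshold. The t-test, trend, block and filter settings left each member difference as it was, so its sign could not change there. The tally thus overstates how stable the signs are. The exceptions beside ID1 and ID3 under array weights were ID2, at 0.086 with the mean of its detected probes, 0.23 with array weights and -0.14 to 0.16 when 1 array was left out, and BAMBI, at -0.54 to 0.099 when 1 array was left out. The second ID2 probe gave 0.20. Without normalization between arrays the median difference of all genes was -0.17, beside 0.021, so differences there are relative to that shift. SMAD6, SMAD7 and BMP7 stayed negative under all 20, without passing the threshold.
With the replicate number as a block, 0 genes passed an adjusted p under 0.05 (528 at an unadjusted p under 0.05), and no member changed its call. Deviations of same-numbered arrays correlated at 0.568, -0.348 and 0.704 across genes, so the numbers were not taken to pair the arrays. On these arrays, with the split that crosses the labels, added changes of 1.41-fold were recovered in 0% of cases and those of 2-fold in 44.1%, pooled over genes. With 200 genes changed at once, these are not the rates for a single member. ID4 and BMP4 could not be measured.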
